A study of Mus musculus with 12 samples.

Results

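Natural killer (NK) cells of mouse tumours were picked from single-cell RNA profiles by 4 receptor genes: a cell needed at least 2 unique molecules (UMIs) of Ncr1, Klrb1c, Klre1 and Klra8 together and none of the T cell receptor subunits Cd3e, Cd3g and Cd3d or of the macrophage receptor Csf1r. This gave 352 NK cells among 50416 tumour cells that carried a single sample tag (0.698%, exact 95% interval 0.627% to 0.775%). SCC31 contributed 72 of them, SCC32 96, SCC35 43, SCC37 52 and SCC40 89. The series concerned melanoma and followed tumours of these 5 lines. In the hashtag table the phenotype is rejected for SCC40 and SCC31, and non-rejected for SCC37, SCC35 and SCC32. Days 6, 10, 16 and 20 were sampled, the last not for rejected lines, and live cells were sorted, tagged per tumour with hashtag antibodies and profiled with a 10x 5' kit. Each line had a library of its own, and a mix library added tumours of SCC31, SCC35 and SCC40. Cells of the same lines at day 0, with no mouse listed, had 2 samples per line. The strain, age and genotype of the mice, and how the lines were made, are not stated in the labels.

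NK cells are innate lymphocytes that kill target cells without a rearranged antigen receptor. Activating receptors such as NKp46 (encoded by Ncr1), NK1.1 (Klrb1c) and NKG2D (Klrk1) are balanced in them by inhibitory receptors of the Ly49 (Klra) family and by the CD94-NKG2A pair (Klrd1 and Klrc1). Killing proceeds through perforin, which opens the target membrane, and granzymes, serine proteases delivered through it. NK cells also release interferon gamma and chemokines, among them XCL1 and CCL5, which attract dendritic cells and T cells.

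Of 43 hashed tumours, 40 gave at least 20 assigned cells, and these held from 76 to 2374 each. At least 1 NK cell was found in 37 tumours, at least 5 in 26 and at least 10 in 13, and these 13 held 231 of the 352. The libraries held 5691826 to 112724631 gene UMIs, the smallest being that of SCC31. That library gave 335 tumour cells and 1 NK cell, so all other NK cells of SCC31 came from the mix library, which held 116 NK cells in all. Of 64433 distinct kept barcodes, 2414 occurred in more than 1 library, and 0 were NK cells in more than 1. How many NK cell barcodes recurred among other kept cells of another library was not counted. SCC32 and SCC37 came from their own library alone, so line and library cannot be told apart there, while SCC31, SCC35 and SCC40 were also in the mix library. The tumours of a group came from separate mice in the authors' table.

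The 4 genes of the rule were unevenly detected. A UMI of Klrb1c was found in 74.7% of them, of Klre1 in 66.2%, of Ncr1 in 46.9% and of Klra8 in 32.1%, and these shares chose the cells. By the same rule, 61 cells had UMIs of 1 of the receptors, 179 of 2, 93 of 3 and 19 of all 4. Among genes that the choice did not use, at least 3 of Gzma, Eomes, Nkg7, Klrk1, Prf1, Tbx21 and Fcer1g were detected in 333 of the 352 cells, and 1 cell had none. The leukocyte gene Ptprc was detected in 94.0%. Xist, which is transcribed from the inactive X chromosome, was found in 63.9% of NK cells and in 8.16% of 36493 tumour cells without a UMI of Ptprc, Cd3 or the 4 receptors, called cells without Ptprc from here on. The summed level of 9 macrophage genes was 163 CPM (UMIs per 1000000 UMIs of the class), against 10530 CPM in 5381 cells with Csf1r and none of Cd3 or the receptors. The 6 dendritic cell genes summed to 608 CPM, against 13110 CPM in cells with Csf1r and 656 CPM in cells without Ptprc, with Flt3 and Xcr1 at 0. The 8 genes of type 1 innate lymphoid cells (ILC1), relatives of NK cells, summed to 302 CPM. They summed to 659 CPM in CD8 T cells, 376 CPM in cells with Csf1r and 620 CPM in cells without Ptprc, so the sum does not single out ILC1.

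Of 11 T cell genes, Cd8b1 and Cd5 were at 0 beside the excluded Cd3 genes, and the list summed to 296 CPM against 3660 CPM in CD8 T cells. The T cell receptor beta constant gene Trbc1 was at 176 CPM and detected in 47.4% of NK cells, against 218 CPM and 39.8% in CD8 T cells. Trbc2 was at 109 CPM and in 25.6%, against 459 CPM and 67.4%. Of 6 melanocytic genes only Mitf was detected, and the list summed to 4.06 CPM. In cells without Ptprc the list was also low, at 15.7 CPM, so it could not show whether tumour cell RNA was present. A UMI of Trac, Cd8a, Cd8b1, Cd4, C1qa or C1qb was carried by 39 members, and Scrublet, which scores simulated doublets, called 21 (5.97%).

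Just inside the threshold lay 122 cells with a receptor sum of 2, and just outside lay 269 cells with a sum of 1. Granzyme A (Gzma) was detected in 73.0% of the former and 44.6% of the latter, and the granule protein gene Nkg7 in 87.7% and 58.7%. Klrd1 was detected in 68.8% of the former and 34.9% of the latter, at median depths of 2517.5 and 2149 UMIs.

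Cells of day 0 gave the background of the rule. Among 7227 such cells 4 passed it (0.0554%), all of them in SCC32 (4 of 2280, 0.175%, exact 95% interval 0.0478% to 0.449%), where 12 T cells were also found. The other 4 lines gave 0 of 4947, which allows a share of up to 0.0606%. These intervals cover counting error only.

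NK cells were a small share of every line's tumours, and that share did not differ detectably between the first and the last day. In SCC31 at day 6 the 3 tumours held 1.15%, 0% and 3.79% NK cells, and at day 10 the 2 tumours held 0% and 3.26%. The highest value on each of these days was that of the mix library, and the days overlap. In SCC32 the values were 0.653% and 0.987% at day 6, 1.46% and 1.49% at day 10, 0.378% and 0.972% at day 16, and 1.54% and 0.267% at day 20. Both the highest and the lowest of these were at day 20, so the days overlap here too. SCC35 held 0.613%, 0.390% and 0.522% at day 6, 0.282%, 0.120% and 0.426% at day 10, 0.102% and 0% at day 16, and 0.138%, 0.0730% and 0.222% at day 20. All 3 of its day 6 tumours lay above all 5 of its tumours of days 16 and 20.

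SCC37 held 1.45% and 0.870% at day 6, 1.22% and 0.316% at day 10, 0.221% and 0.317% at day 16, and 0.609% and 0.565% at day 20. Its day 6 tumours were above those of days 16 and 20, which held 2 to 9 NK cells each. SCC40 held 1.28%, 0.990% and 0.836% at day 6, 0.328%, 0.294% and 1.12% at day 10, and 1.22% and 0.653% at day 16, with the days overlapping. Over the 5 lines the share on the last day minus that on day 6 was -0.194 percentage points on average, and a stratified exact permutation test with days exchanged within lines (72000 arrangements, two-sided) gave p = 0.584. The change was -0.364 points in SCC35 and -0.574 in SCC37, whose groups do not overlap, and from -0.0973 to 0.0811 in the other 3 lines.

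**Figure D1:**
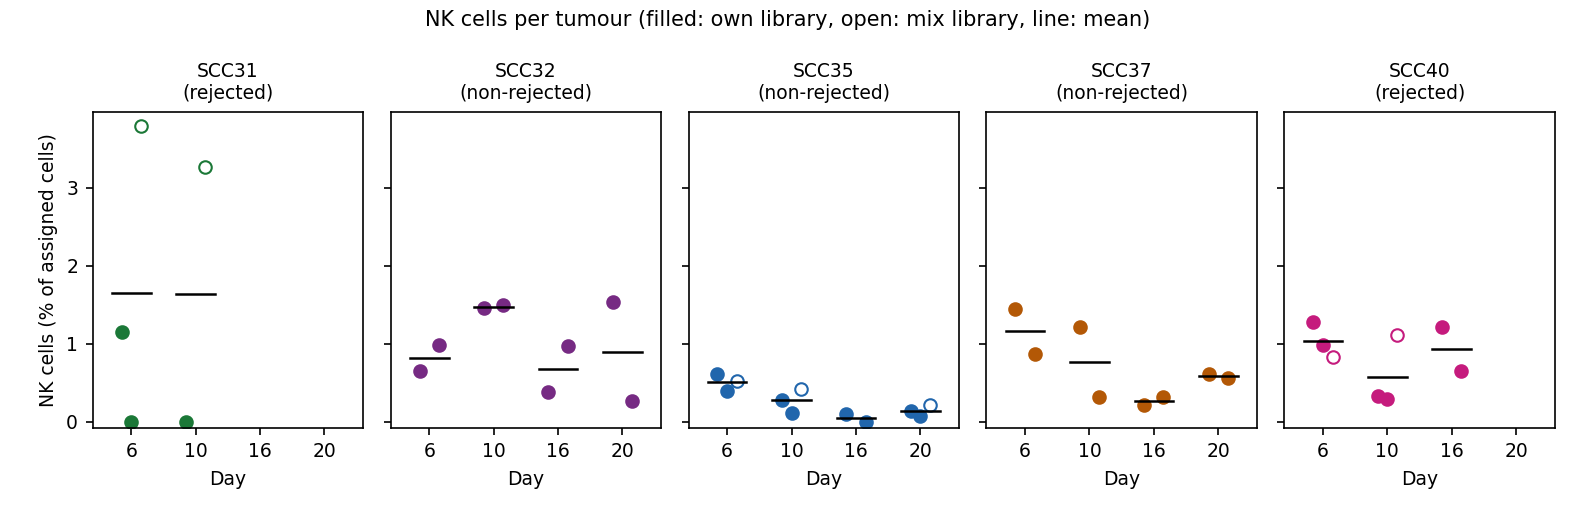
NK cells as a percentage of assigned cells (vertical axis) by day (horizontal axis) in each line, 1 point per tumour, filled for the line's own library and open for the mix library, with a line at the mean. The highest shares, 3.79% and 3.26%, are the SCC31 tumours of the mix library, and SCC35 is lowest at days 16 and 20.

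Relative to T cells, in contrast, NK cells fell from day 6 to the last day. T cells were counted as cells with at least 2 Cd3 UMIs and no Csf1r UMI (3549 in all), and tumours needed 5 NK plus T cells. NK cells made up 38.0% of NK plus T cells in the single SCC31 tumour of day 6 that qualified, and 0% and 6.78% in those of day 10. In SCC35 the day 6 tumours stood at 37.5%, 16.3% and 29.6% and those of day 20 at 4.48%, 3.45% and 5.66%. SCC37 had 30% and 33.3% at day 6 and 8% and 8.41% at day 20, and SCC40 had 21.2%, 32.6% and 19.0% at day 6 and 7.62% and 5.23% at day 16. In these 4 lines no tumour of the last day reached a tumour of day 6.

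SCC32 overlapped, with 9.38% and 18.2% at day 6 and 10.7% and 2.22% at day 20. The mean change over the 5 lines was -21.3 percentage points, and the stratified exact permutation test (21600 arrangements, two-sided) gave p = 9.26e-05, or 1.85e-04 after Benjamini-Hochberg adjustment over the 2 share tests. All 5 line means were lower on the last day. At day 10 the line means were 3.39% in SCC31, 6.20% in SCC32, 9.74% in SCC35, 9.19% in SCC37 and 3.87% in SCC40.

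The T cell share of assigned cells moved with this ratio. From day 6 to the last day its mean went from 2.44% to 26.9% in SCC31, 5.38% to 12.3% in SCC32, 1.42% to 2.89% in SCC35, 2.56% to 6.58% in SCC37 and 3.46% to 13.3% in SCC40. The ratio thus changed in lines where the NK share of all cells was nearly level (SCC31, SCC32, SCC40) as well as in those where it was lower on the last day (SCC35, SCC37).

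**Figure D2:**
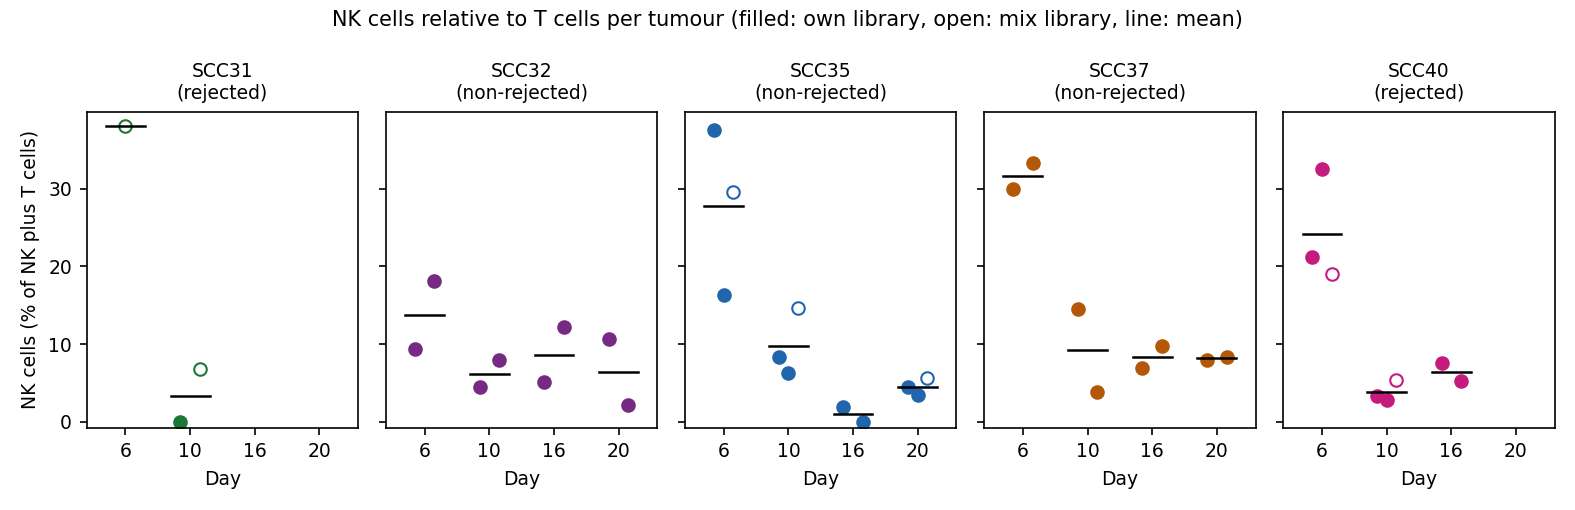
NK cells as a percentage of NK plus T cells (vertical axis) by day (horizontal axis), 1 point per tumour with at least 5 such cells, filled for own and open for mix library, with a line at the mean. Day 6 tumours lie highest in SCC31, SCC35, SCC37 and SCC40, while SCC32 starts lower, at 9.38% and 18.2%.

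Between lines the NK share did not pass the test. At day 6 the line means ran from 0.508% ± 0.112 (SD, n = 3) in SCC35 to 1.645% ± 1.94 (SD, n = 3) in SCC31, a range of 1.14 points, and the exact permutation test over lines gave p = 0.8125. At day 10 they ran from 0.276% ± 0.153 (SD, n = 3) in SCC35 to 1.63% ± 2.31 (SD, n = 2) in SCC31, with an exact permutation p = 0.457 (0.8125 adjusted over the 2 days). These calls rest on the SCC31 library: without it the ranges were 3.28 and 2.99 points, with an adjusted exact permutation p = 0.00944 on each day, and SCC31 was then 1 mix tumour per day. Without SCC31 tumour 1 of day 10 alone, the adjusted exact permutation p of day 10 was 0.0187.

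By outcome, the rejected lines averaged 1.22% ± 0.588 (SD, n = 2 lines) over days 6 and 10 and the non-rejected lines 0.835% ± 0.394 (SD, n = 3 lines). SCC40, which is rejected, had 0.807%, below SCC32 (1.15%) and SCC37 (0.964%), which are not. An exact permutation test with the line as unit gave p = 0.5, two-sided, where 0.1 is the smallest possible. The rejected minus non-rejected difference of 0.388 points turned to -0.316 without the mix library and to -0.0197 without SCC31 tumour 3 of day 10.

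The program of these cells was set beside that of 847 CD8 T cells of the same tumours (at least 2 Cd3 UMIs, a Cd8a or Cd8b1 UMI, and none of Cd4, Csf1r or the 4 receptors). Median depths were 2946.5 UMIs for NK and 2280 for CD8 T cells, and genes are compared between classes, never with each other, in CPM of summed UMIs. Both classes had at least 10 cells in 11 tumours. The genes described here were singled out from lists of NK biology after their values were seen, and no test was made.

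Receptors divided the classes, which were themselves chosen by receptor genes. Klrd1, the CD94 subunit, stood at 543 CPM in NK and 188 CPM in CD8 T cells, and Klrk1 at 252 and 109 CPM, each higher in NK cells in 11 of 11 tumours. The inhibitory Klra7 was detected in 37.8% of NK and 1.42% of CD8 T cells. Members of the Klra family have near-identical sequences, so the split of reads among them is uncertain. CD8 T cells with a UMI of the receptors that chose the NK cells, Klra8 among them, were left out by definition. The part of this choice in the differences of Klrd1, Klrk1 and Klra7 was not tested. Klrc1, which encodes NKG2A, was not an NK feature here, at 110 and 126 CPM. Il2rb, the shared receptor chain for interleukins 2 and 15, was at 1020 CPM in NK and 320 CPM in CD8 T cells and higher in NK cells in 11 of 11 tumours.

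Other genes ran the other way. Pdcd1, encoding the checkpoint receptor PD-1, was at 8.12 CPM in NK and 125 CPM in CD8 T cells, and lower in NK cells in 11 of 11 tumours. The chemokine receptor gene Cxcr6 was at 9.47 and 161 CPM and Ly6c2 at 324 and 1726 CPM, also lower in 11 of 11. Tigit, at 85.2 and 68.7 CPM, and Lag3, at 65.6 and 98.5 CPM, did not divide the classes, being higher in NK cells in 9 and 7 of 11 tumours.

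Killing genes were mostly higher in NK cells. Perforin (Prf1) was at 629 CPM in NK and 58.7 CPM in CD8 T cells. Granzyme A was at 4220 and 213 CPM, and granzyme C (Gzmc) at 1692 and 19.4 CPM. These 3 genes were higher in NK cells in 11 of 11 tumours, whereas granzyme B (Gzmb), at 1632 and 926 CPM, was higher in 7 and lower in 4. Granzyme K (Gzmk) was nearly missing from NK cells, with a UMI in 2 of 352 cells against 19.7% of CD8 T cells. The granzyme inhibitors Serpinb9 (500 and 142 CPM) and Serpinb6b (453 and 121 CPM) were higher in NK cells in 11 of 11 tumours.

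Of the chemokines, Xcl1 separated the classes at 1319 and 211 CPM (11 of 11 tumours), while Ccl5 did not, at 2624 and 2891 CPM with 5 tumours higher and 6 lower. Ccl5 was also at 404 CPM in cells without Ptprc, and the part of free RNA in its level was not tested. Interferon gamma (Ifng) was at 133 and 176 CPM. Among transcription factors, Eomes stood at 94.0 and 30.7 CPM and Tbx21 at 70.4 and 34.0 CPM, each higher in NK cells in 10 of 11 tumours. Irf8 was at 949 and 65.0 CPM (11 of 11). Vegfa, the angiogenic growth factor, was at 155 CPM in NK and 20.7 CPM in CD8 T cells and higher in NK cells in 10 of 11, with 36.3 CPM in cells without Ptprc.

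At an equal depth of 1000 UMIs per cell, with 19 NK and 101 CD8 T cells left out as shallower, the expected share of cells with a UMI was 69.0% in NK and 9.49% in CD8 T cells for Gzma. It was 42.7% and 7.03% for Prf1, 63.7% and 7.25% for Irf8, 15.9% and 1.87% for Vegfa, and 0.746% and 14.4% for Pdcd1. Without thinning these shares were 79.3% and 15.5% for Gzma and 66.5% and 17.0% for Prf1. Cells without Ptprc, which by their definition also lacked Cd3 and receptor UMIs, had a median of 4893 UMIs and a Gzma UMI in 0.496% and a Prf1 UMI in 0.132%.

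**Figure D3:**
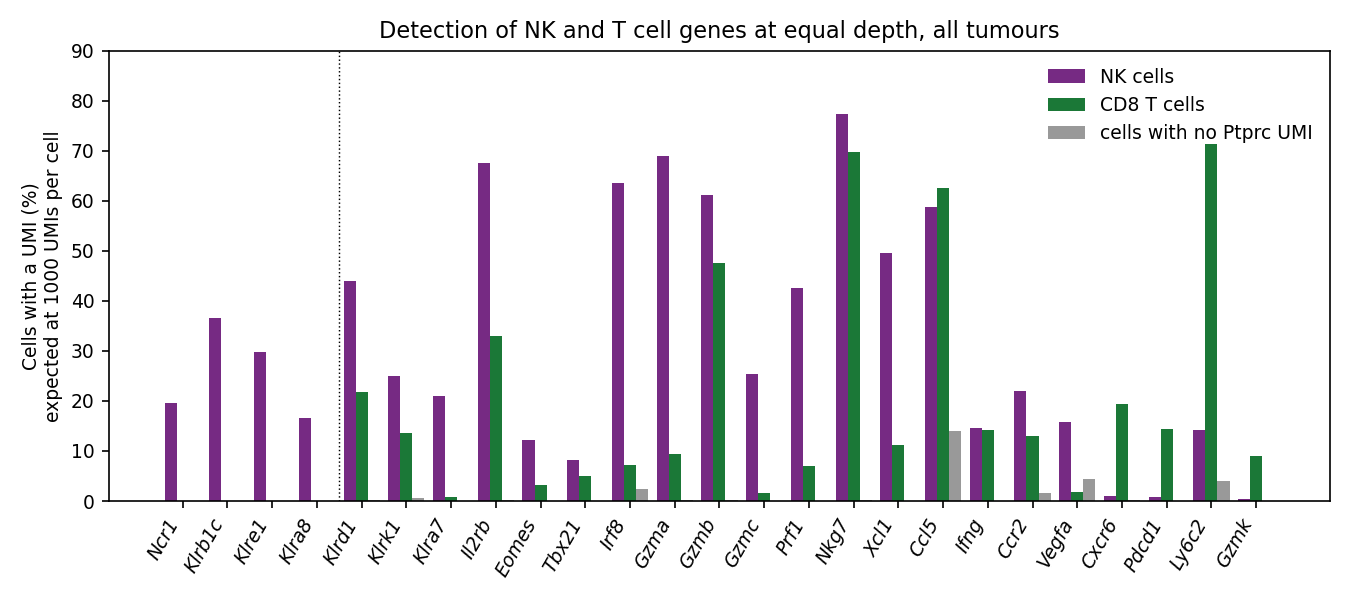
Expected percentage of cells with at least 1 UMI at 1000 UMIs per cell (vertical axis) for 25 genes (horizontal axis) in NK cells, CD8 T cells and cells with no UMI of Ptprc, Cd3 or the receptors. Genes left of the dotted line chose the NK cells and were excluded from the CD8 T cells, so their bars are no result. Gzma, Prf1, Irf8 and Xcl1 stand high in NK cells, and Pdcd1, Cxcr6, Ly6c2 and Gzmk in CD8 T cells.

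Maturation genes were thinly detected. Itgam, which encodes CD11b and marks mature circulating NK cells, was found in 30 of 352 cells (8.52%), and Klrg1, another maturation marker, in 39 (11.1%). Itga1, which encodes CD49a and marks tissue-resident innate lymphocytes, was also found in 30, and 3 cells had both Itgam and Itga1. S1pr5, a receptor for egress from tissue, had a UMI in 1 cell, Cxcr6 in 12 and Il7r in 9. The chemokine receptor gene Ccr2 was more frequent, in 50.6%. Mki67, a gene of cycling cells, was detected in 83 cells (23.6%), and in 27.5% of CD8 T cells.

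Gene expression of NK cells was then compared over days and lines, with counts summed per tumour in the 13 tumours of at least 10 NK cells. Day 6 had 5 such tumours, day 10 had 5, day 16 had 2 and day 20 had 1 (SCC32). SCC40 had 5, SCC32 5, SCC31 2 and SCC37 1, and SCC35 none. edgeR's quasi-likelihood test with day and line as additive terms covered 1961 genes and left 6 residual degrees of freedom.

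By day, no gene passed an adjusted p of 0.05 in edgeR's test: the counts at days 10, 16 and 20 against day 6 were 0 of 1961 (0%) each. At an unadjusted p under 0.05 there were 186, 103 and 54 genes, and DESeq2 called 2, 4 and 3. Day 20 was 1 tumour, whose spread is taken from the other groups. Gzma stood at 5654 CPM in the SCC31 tumour of day 6 and 3254 CPM in that of day 10. In SCC32 it was at 4260 CPM at day 6, 5948 and 8239 CPM at day 10, 1063 CPM at day 16 and 2883 CPM at day 20. SCC40 gave 7400, 15320 and 5762 CPM at day 6, 4103 CPM at day 10 and 1666 CPM at day 16, and the SCC37 tumour of day 10 gave 2243 CPM.

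The 2 tumours of day 16 were thus the lowest of all 13 for Gzma. The log2 fold change at day 16 was -2.47 (SE 0.45), with an edgeR adjusted p = 0.0708, and 8.70e-06 in DESeq2. At day 10 it was -0.32 (SE 0.35, edgeR adjusted p = 0.793), a direction that turned under 3 other settings and without SCC40 tumour 3 of day 10, and at day 20 -1.21 (SE 0.60, edgeR adjusted p = 1). Over all 352 members, Gzma was detected in 91.0% of cells at day 6, 80.7% at day 10, 63.8% at day 16 and 56.1% at day 20, at median depths of 3253, 2222, 3271 and 3310 UMIs. Within SCC32 the shares were 95.7%, 80%, 62.5% and 52.6%, and within SCC40 94.4%, 85.7% and 68% over its 3 days. SCC37 went from 82.4% of 17 cells at day 6 to 60% of 15 at day 20, and SCC35 from 81.0% of 21 cells to 57.1% of 7. Detection was thus lower on the last day than on day 6 in each of these lines. Day 16 held only 7 NK cells in SCC37 and 2 in SCC35, and is left out for them. Cells are not replicates, so these shares are a description.

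Gzmb was at 1510 to 3419 CPM in the 5 tumours of day 6. At day 10 it was at 341 CPM in SCC31, 1769 and 2144 CPM in SCC32, 617 CPM in SCC40 and 3882 CPM in SCC37, so the days overlap across lines, while in SCC31, SCC32 and SCC40 each tumour of day 10 lay below every day 6 tumour of its own line. The log2 fold change at day 10 was -1.60 (SE 0.29, edgeR adjusted p = 0.127, 6.93e-04 in DESeq2), and -0.27 (edgeR adjusted p = 0.871) when tumours with 5 NK cells were admitted. Markers of fibroblasts moved with day in these sums: Col1a1, Col3a1, Dcn and Pdgfra together had a median of 0 CPM in tumours of day 6 (range 0 to 14.2), 22.8 CPM at day 10 (0 to 486), 395 CPM at day 16 (365 and 426) and 231 CPM at day 20, against 1218 CPM in cells without Ptprc. The ILC1 list was at 24.5 to 366 CPM at day 6, 129 to 575 CPM at day 10, 395 and 928 CPM at day 16 and 205 CPM at day 20. Macrophage genes were at 0 to 179 CPM at day 6 and 81.0 and 521 CPM at day 16, and dendritic cell genes at 54.9 to 841 CPM and at 50.6 and 1969 CPM, the higher value of day 16 being SCC40 for all 3 lists. The part of these lists in the differences was not tested.

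**Figure D4:**
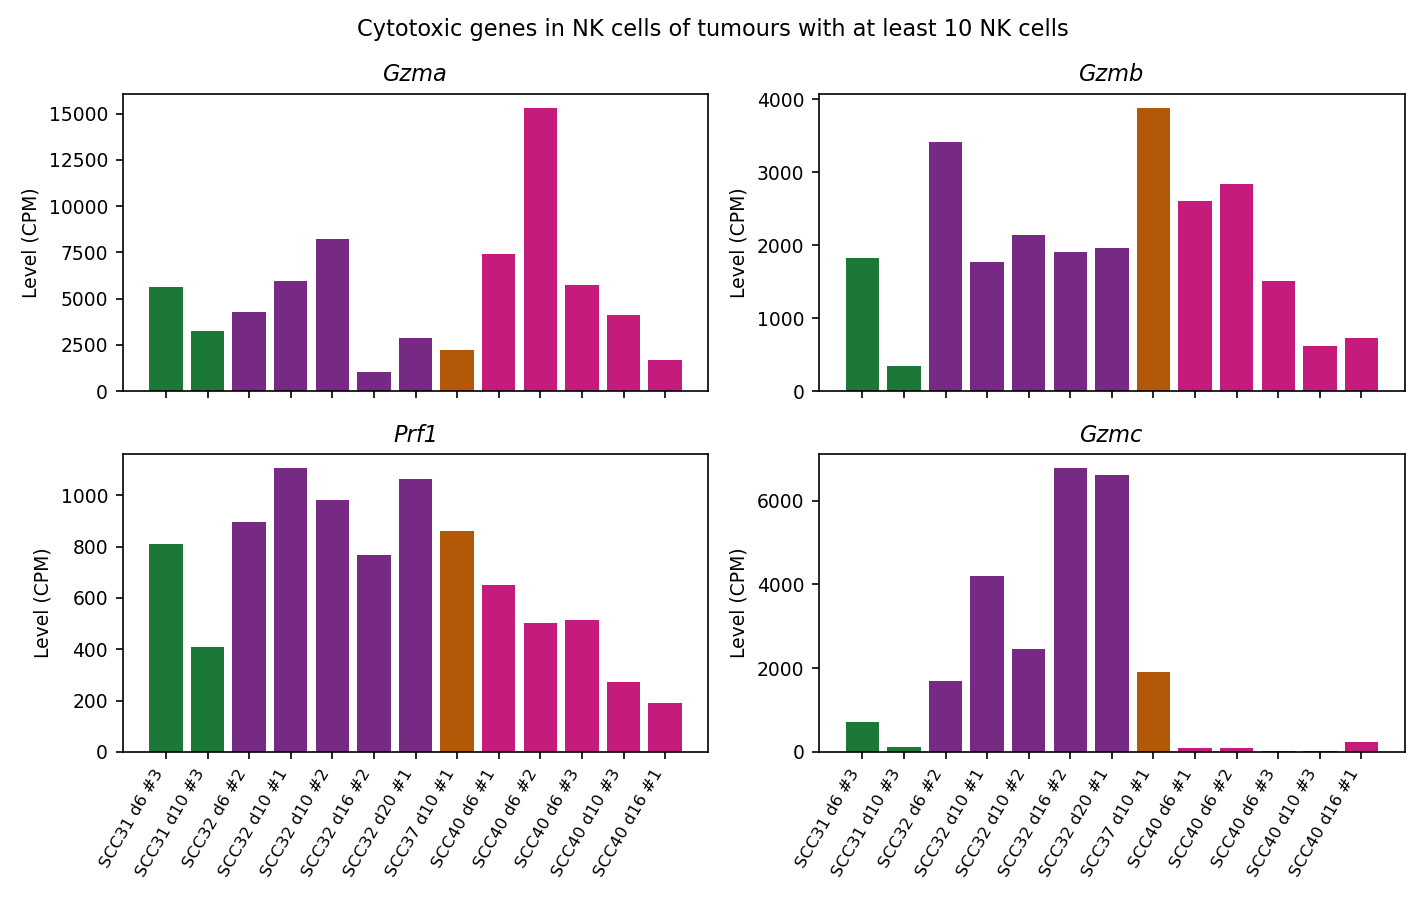
Level in CPM (vertical axes, linear, from 0) of Gzma, Gzmb, Prf1 and Gzmc in NK cells of the 13 tumours with at least 10 NK cells (horizontal axis, line, day and tumour number), 1 bar per tumour coloured by line. Gzma is lowest in both tumours of day 16, and Gzmc is high in SCC32 and SCC37 and between 15.6 and 227 CPM in SCC40.

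By gene group, no member passed edgeR's test by day, beside 0% of all genes. Of 14 proliferation genes 11 were tested, and 11 of 11 were lower at day 10, with a median log2 fold change of -0.97 against 0.04 over all genes tested. Mki67 was one of them, at -0.97 (SE 0.55, edgeR adjusted p = 0.572), with 31.1 to 233 CPM in the tumours of day 6 and 22.1 to 148 CPM in those of day 10. At days 16 and 20 the group was lower for 9 and 5 of 11. Early-response and heat shock genes such as Fos were higher for 11 of 12 at day 10 (median 0.59), 10 of 12 at day 16 (median 0.90) and 12 of 12 at day 20 (median 0.58). Fos was at 1312 CPM in cells without Ptprc against 398.5 CPM in NK cells, while the heat shock gene Hspa8 was at 1362 and 1416 CPM. The part of free RNA in these changes was not tested. Of 12 cytotoxic genes tested, 4 were higher and 8 lower at day 10 and 5 higher and 7 lower at day 16. All 6 cytokine receptor genes tested were lower at day 16, with a median of -0.46 (all genes -0.02).

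Members of the NK program itself varied between tumours without a call. Xcl1 ran from 77.9 to 3616 CPM, with the 5 SCC32 tumours at 1353 to 3616 CPM and the 5 SCC40 tumours at 77.9 to 1127 CPM. These ranges do not overlap, but the log2 fold change of SCC32 against the mean of the other lines was 1.41 (SE 0.45, edgeR adjusted p = 0.664). Eomes ran from 28.4 to 232 CPM, Tbx21 from 24.5 to 232 CPM, Ifng from 47.3 to 388 CPM and Prf1 from 189 to 1106 CPM, with edgeR adjusted p-values of 0.181 (Prf1 in SCC40) or more in every day and line contrast. Klrg1, Itgam and Itga1 were at 0 CPM in 1, 4 and 5 of the 13 tumours and reached 133, 109 and 111 CPM in the highest.

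Of the receptors that chose the cells, Klrb1c ran from 213 to 568 CPM, Klre1 from 109 to 347 CPM, Ncr1 from 36.6 to 388 CPM and Klra8 from 73.6 to 518 CPM. Since these genes chose the cells, their levels are a description only.

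Between lines, 1 gene of 1961 (0.051%) passed edgeR's test over the 4 lines fitted, and it was Gzmc (adjusted p = 0.00203). Gzmc encodes granzyme C, a member of the granzyme cluster on mouse chromosome 14 whose best known sites of expression are activated killer lymphocytes. It lies at chr14:56231441-56234656 on the minus strand (GRCm38, GENCODE M21), with Gzmb at chr14:56258838-56262260 and Gzmf, Gzmd and Gzme on the other side, while Gzma lies apart at chr13:113093825-113100981. The paralogs of the cluster are alike in sequence, so the split of reads between Gzmc and its neighbours is uncertain.

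In SCC40 the Gzmc level was 85.9, 89.4 and 15.6 CPM in the tumours of day 6, 18.2 CPM at day 10 and 227 CPM at day 16. In SCC32 it was 1682 CPM at day 6, 4201 and 2454 CPM at day 10, 6773 CPM at day 16 and 6599 CPM at day 20. The SCC37 tumour of day 10 had 1898 CPM, and the SCC31 tumours had 717 CPM at day 6 and 125 CPM at day 10. All 5 SCC40 tumours lay below all SCC32 and SCC37 tumours, and they overlapped those of SCC31.

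Gzmc was lower in SCC40 than the mean of the other lines (log2 fold change -4.37, SE 0.54, edgeR adjusted p = 0.00179), and it was the only gene called there (0.051%). In SCC32 Gzmc was higher (log2 fold change 2.88, SE 0.45, edgeR adjusted p = 0.0307), again the only call (0.051%). The SCC31 and SCC37 contrasts called 0 genes (0%) in edgeR, with 78 and 121 genes at an unadjusted p under 0.05 and 2 and 7 in DESeq2, and SCC37 was 1 tumour, whose spread is taken from the other groups. The SCC40 difference passed in every alternative run, with log2 fold changes from -4.93 to -3.30 and adjusted p-values up to 0.0192. With the mix library as a term it was -4.62 (edgeR adjusted p = 3.95e-04), and within that library the SCC40 tumours had 15.6 and 18.2 CPM and the SCC31 tumours 717 and 125 CPM. The SCC32 difference did not: it was lost when tumours with 5 NK cells were admitted (1.96, edgeR adjusted p = 0.0647), with the mix library (2.04, edgeR adjusted p = 0.812) or the replicate number (2.73, edgeR adjusted p = 0.7635) as a term, and in 7 of the 13 fits that left out a tumour, over which the log2 fold change ran from 2.41 to 4.09.

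With tumours of at least 5 NK cells, 26 tumours entered, SCC35 among them with 5. Gzmc was again lower in SCC40 (log2 fold change -4.23, SE 0.60, edgeR adjusted p = 2.75e-04) and was higher in SCC35 (2.11, SE 0.49, edgeR adjusted p = 0.0368), over 1158 genes tested. It was not the only call in SCC35. Mrps14, Ifitm2, Gzme and Hbegf were also called as higher there, and Plek, Ifi27l2a, Atp5mpl and H2-K1 as lower.

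Over all members, SCC40 again had the lowest Gzmc level. It had 43 Gzmc UMIs in 18 of its 89 NK cells (20.2%, 101 CPM), at a median depth of 3324 UMIs. SCC31 had a UMI in 36.1% of cells (536 CPM), SCC37 in 44.2% (1737 CPM), SCC35 in 46.5% (2013 CPM) and SCC32 in 47.9% (4185 CPM), at medians of 2462 to 3220 UMIs. The background is low, since cells without Ptprc had a UMI in 0.189% and CD8 T cells stood at 9.93 CPM in SCC40 and 19.0 to 26.6 CPM in the other lines. By line and day, SCC40 was at 64.5, 21.2 and 214 CPM on days 6, 10 and 16. SCC37 went from 207 CPM at day 6 through 1694 and 1878 CPM to 3839 CPM at day 20, and SCC32 from 1293 CPM through 3395 and 6064 CPM to 5671 CPM. The day terms for Gzmc were -0.32, 1.44 and 1.15 at days 10, 16 and 20 (SE 0.57, 0.62 and 0.77, edgeR adjusted p = 0.867, 0.901 and 1).

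**Figure D5:**
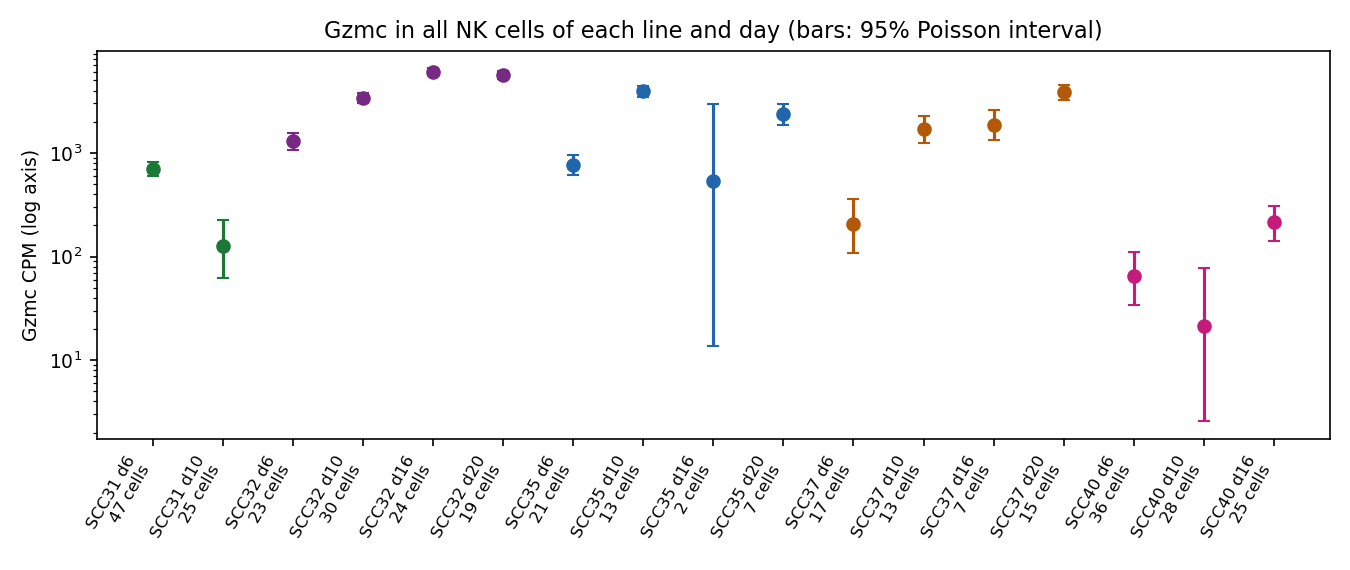
Gzmc level in CPM (vertical axis, log scale) over all NK cells of each line and day (horizontal axis, with the number of cells), with 95% Poisson intervals that cover counting error only. SCC40 lies between 21.2 and 214 CPM on its 3 days, while SCC32 lies between 1293 and 6064 CPM.

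Gzmc was concentrated in few cells. Of 2501 Gzmc UMIs, the 10 richest cells held 59.2%, against 19.4% for Gzma and 21.0% for Gzmb, and 40 cells had 10 UMIs or more, of which SCC32 held 17, SCC35 11, SCC37 7, SCC31 5 and SCC40 0. A single cell of SCC32 tumour 2 of day 16 carried 470 of the 669 Gzmc UMIs of that tumour. Without the richest cell of each tumour, the SCC32 levels were 1231 CPM at day 6, 348 and 313 CPM at day 10, 2213 CPM at day 16 and 4236 CPM at day 20. Those of SCC40 were then 0 to 166 CPM and that of SCC37 451 CPM. Refitted on those cells, SCC40 kept its call for Gzmc (log2 fold change -4.21, edgeR adjusted p = 0.00342) and SCC32 did not (1.87, edgeR adjusted p = 0.3675).

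The neighbours of Gzmc were rare. Gzmf had a UMI in 12 members, Gzme in 12 and Gzmd in 9, and in SCC40 each had 0 UMIs in 89 cells. Of the 133 cells with Gzmc, 121 had a Gzmb UMI and 95 a Gzma UMI, where 81.0% and 79.3% of all members did. Of the 30 cells with Itga1, 24 had Gzmc, against 37.8% of all members. Cells of all lines and depths were pooled for these overlaps, and the part of depth in them was not tested.

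Other groups gave no call between lines in edgeR's test. In SCC40, 11 of 13 interferon response genes tested were higher (median log2 fold change 1.22, all genes 0.12), with none called by edgeR. DESeq2 called 12 genes there, among them Isg15 (2.30, adjusted p = 0.0155) and Bst2 (1.86, adjusted p = 0.0101). Ccl2 (4.27, DESeq2 adjusted p = 0.00695) and Fn1 (2.93, DESeq2 adjusted p = 0.0455) were also among them. DESeq2 gave no adjusted p for 1444 of the 1961 genes there, so it adjusted over fewer genes than edgeR. Cells without Ptprc had Isg15 at 644 CPM and Bst2 at 1518 CPM, against 442 and 604 CPM in NK cells, and their part was not tested. Isg15, an interferon-induced ubiquitin-like protein, was at 2.25 (SE 0.41, edgeR adjusted p = 0.0796), at 0.97 (edgeR adjusted p = 0.238) when tumours with 5 NK cells were admitted and at 1.31 (edgeR adjusted p = 0.1245) without the SCC37 tumour, its levels being 454 to 1043 CPM in SCC40, 397 to 840 CPM in SCC32, 114 and 156 CPM in SCC31 and 43.1 CPM in SCC37. The low values are those of SCC31 and SCC37, and SCC32 overlapped SCC40. All 11 hypoxia and glycolysis genes tested were higher in SCC40, with a median of 0.26 against 0.12 over all genes. Cells without Ptprc held these transcripts too, with Aldoa at 1282 CPM against 655 CPM in NK cells and Ldha at 1524 against 985 CPM, and their part was not tested. In SCC32, 7 of 7 inhibitory and checkpoint receptor genes were higher (median 0.57, all genes 0.06), again with no call by edgeR.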

How the data were processed

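Gene expression and hashtags of dissociated tumours were measured in 6 libraries (10x 5' V(D)J chemistry, per the labels' protocols). The deposited values were raw, unnormalised UMI counts. Per the file headers the authors used Cell Ranger 6.0.0, and mm10 is named in the submitters' processing notes. The files' columns of cells were mapped to tumours through the authors' hashtag table, whose deposited entries name line, outcome, day and replicate. Gene positions were read from GENCODE M21 (GRCm38) by matching Ensembl identifiers.

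Cells had at least 300 genes, at most 15% mitochondrial counts and a leading hashtag of at least 10 counts and 2 times the next. The members and gene lists were chosen with earlier results of these data known. Shares were compared by exact permutation tests over tumours or lines (scipy 1.17.1), the test between lines using the sum of squares between lines. UMIs of NK cells were summed per tumour and tested in edgeR 4.0.16 (R 4.3.3; TMM, default low count filter, Benjamini-Hochberg over all genes). Genes named were those passing the test plus 16 NK genes fixed as a description, and others are said to be chosen after their values were seen. DESeq2 1.42.0, gates, filters, denominators, library terms and leaving out each tumour were alternatives. Doublets were called with Scrublet (scanpy 1.11.5, expected rate 0.08) and removed in an alternative only. Intervals are exact, at 95%, and floors use 3 counts. The scripts were tested on simulated data.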

Additional observations from a re-analysis of the deposited data

Results flagged for a closer look

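At day 0, with no mouse listed, 0.175% of SCC32 cells (4 of 2280) passed the NK rule, more than the 0 of 4947 cells of the other lines. They were singled out because these samples enter no comparison of tumours.

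Among 9244 kept cells without a single leading hashtag, 33 (0.357%) passed the NK rule, above the 0.0554% of day 0 cells. These cells belong to no tumour and were not used.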

How the results depend on the processing

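The fall of NK cells relative to T cells held in every alternative run (-27.0 to -2.10, the smaller end on the log2 scale, and -22.4 to -18.0 with each tumour left out). The first-to-last change of the NK share ran from -0.520 to 0.133 points with each tumour left out, turning to 0.0206 without SCC31 day 6 tumour 3 and to 0.133 without SCC31 day 10 tumour 1. It was negative in all 11 other settings, and none passed. On the log2 scale it was -0.755 (exact permutation p = 0.0667), and without the mix library -0.332 points (exact permutation p = 0.1415). Line ranges ran from 0.652 to 1.96 points at day 6 and 1.28 to 2.99 at day 10 on leaving out tumours, and were 3.28 and 2.99 without the SCC31 library, an alternative chosen after seeing the data. The outcome difference ran from -0.0197 to 0.796 on leaving out tumours, the lowest being without SCC31 day 10 tumour 3, and was -0.316 without the mix library.

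Counts of called genes depended on the settings; they are given for day 10, day 16, day 20, the 4 lines together, SCC31, SCC32, SCC37 and SCC40 where they changed. DESeq2 gave 2, 4, 3, 8, 2, 3, 7 and 12, and no low count filter 28, 49, 9, 87, 2, 10, 5 and 90. In DESeq2, 1406 genes for the lines and 1444 in SCC40 had no adjusted p, so fewer genes were adjusted over there. At least 5 NK cells gave 2 at day 10, 9 for the lines, 0 in SCC32, 43 in SCC37 and 7 in SCC40. The mix library as a term gave 3 at day 16, 3 for the lines, 0 in SCC32 and 2 in SCC40, and leaving that library out 9, 8, 1 in SCC37 and 15 in SCC40. A receptor sum of 3 gave 9, 1, 11 for the lines, 2 in SCC32 and 10 in SCC40, the strict gate 2, 5, 9, 2 and 32. Removing Scrublet doublets gave 46, 3, 6, 1 in SCC31, 2 in SCC32 and 2 in SCC37. Without the richest Gzmc cell of each tumour, added after seeing the data, there were 1 at day 16, 2 for the lines and 0 in SCC32. With each tumour left out the counts ran from 0 to 8 at day 10, 0 to 10 at day 16, 1 to 5 for the lines, 0 to 3 in SCC32 and 1 to 19 in SCC40, the highest at days 10 and 16 without SCC40 day 6 tumour 3 and in SCC40 without day 6 tumour 1. The causes were not tested.

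With the replicate number as a block, counts were 1 at day 10, 3 at day 16, 8 for the lines, 0 in SCC32 and 3 in SCC40. Residuals of same-numbered tumours correlated at -0.105 on average (15 pairs) and others at -0.0975 (40 pairs). With 6 residual degrees of freedom these correlations do not decide whether the numbers pair tumours. All tumours numbered 3 were in the mix library, so number and library cannot be told apart for them. Gzma at day 10 turned to 0.132 with 5 NK cells, 0.519 without the mix library, 0.00293 with the block and 0.0405 without SCC40 day 10 tumour 3, from -0.704 with other tumours left out. Its day 16 difference passed in 8 of 11 other settings and in 4 of 13 fits that left out a tumour, with adjusted p up to 1 (without SCC40 day 16 tumour 1) and 0.572 without SCC32 day 16 tumour 2. A minimum of 20 NK cells left 3 tumours and could not be fitted. Depth is limited by 10 to 46 NK cells per tumour, and SCC35 enters the expression tests only at 5 cells.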
